A study of Mus musculus with 30 samples.

Results

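KIT-selected cells of the mouse testis were compared between postnatal day 14 (P14) and postnatal day 12 (P12). The comparison rests on 3 of the 16 RNA libraries, and of the 30 samples, of the series: 1 library labelled P14 KIT and 2 labelled P12 KIT, chosen by their age and marker labels. Both groups are labelled as spermatogonia of C57BL/6 mice, carry no transgene or treatment in the labels, and were enriched on a magnetic column with an antibody to CD117, the KIT protein. Whether animals were pooled is not stated. The table holds 20889 gene symbols with 1 FPKM value (fragment counts scaled to transcript length and to library size) per group, so the P12 value stands for both libraries and the P14 value for 1. No difference therefore has a replicate check, no test was possible, and every value describes these libraries.

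KIT is the receptor for stem cell factor and is carried by spermatogonia that have left the stem cell pool under retinoic acid. These cells divide several times as type A, intermediate and type B spermatogonia, copy their DNA once more as preleptotene cells, and enter the prophase of meiosis. In the first wave of spermatogenesis these steps follow the age of the animal, so leptotene and zygotene spermatocytes come first and pachytene spermatocytes, with their own set of genes for later sperm, follow. Sertoli cells line the same tubules, and Leydig cells lie between them and make testosterone.

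Differences are P14 minus P12 of log2(FPKM + 1); the added 1 shrinks differences of weakly expressed genes. A gene is called higher or lower at P14 where it differed by 2-fold or more, a log2 difference of 1, and its higher value was at least 5 FPKM. Of 9842 genes that reached FPKM of 5, 543 were higher at P14 (5.52%) and 1098 were lower (11.2%). At 4-fold the split was more uneven, with 27 higher (0.274%) and 302 lower (3.07%), 329 in all (3.34%). Leaving out small RNA and unnamed gene models, the largest higher difference was that of Pisd-ps1 (3.80), at 0.0273 and 13.3 FPKM. Pisd-ps1 stood at 0.0229 FPKM in P7 KIT and 0.0205 FPKM in P14 THY1, so its high value rests on 1 library. Over the 13078 genes that reached 1 FPKM in either column the median difference was -0.07. Scaling the columns to the same total FPKM lowered that median by 0.26 and left 217 genes higher and 1705 lower, so that 88.7% of the called genes were lower against 66.9% without it. That total depends on Rmrp, a small structural RNA gene, which alone held 36.8% of the summed FPKM at P14 and 33.4% at P12. The smallest steps between low values were worth 1.34 times more at P14 than at P12, at 20% of 425 genes under 0.05 FPKM in both columns. How many fragments lie behind a value is not known, so no interval was computed.

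**Figure D1:**
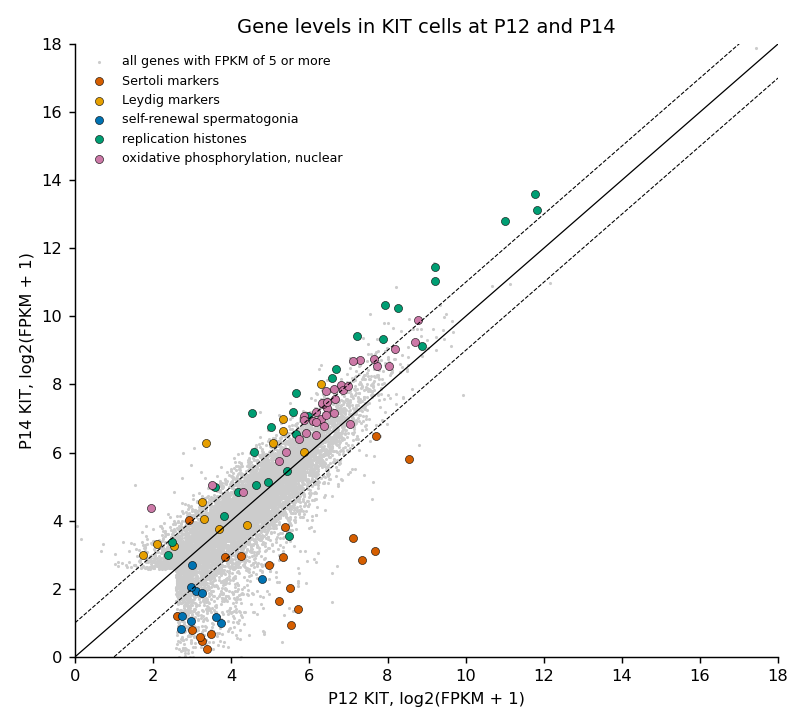
Level of each gene with FPKM of 5 or more in either column, as log2(FPKM + 1), at P12 (horizontal) and P14 (vertical) in KIT cells, with members of 5 gene lists coloured. The solid line marks equal levels and the dashed lines a 2-fold difference. Below the lower dashed line lie 19 of 21 Sertoli markers and 8 of 10 self-renewal genes, and above the upper one 18 of 28 replication histones and 8 of 13 Leydig markers.

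The selection marker was present at both ages. Kit stood at 72.5 FPKM at P12 and 103 FPKM at P14, a log2 difference of 0.50 that did not reach 2-fold. Ddx4, the gene of the VASA helicase that marks germ cells, stood at 150 FPKM and 169 FPKM. Thy1, the marker used to select the other cells of the study, stood at 0.386 FPKM and 0.216 FPKM. Thy1 was low in the THY1-selected cells as well, at 1.17 and 1.20 FPKM, so its level says little about the selection.

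Genes of the stem cell state were mostly lower at P14. Of 20 self-renewal genes, 10 reached FPKM of 5, and 8 of these were lower at P14 and none was higher (median -1.56 over the 14 members with FPKM of 1 or more). Gfra1 and Ret encode the receptor pair for GDNF, the growth factor that Sertoli cells supply to stem cells. Gfra1 stood at 12.3 FPKM at P12 and 0.992 FPKM at P14, a difference of -2.74. Ret stood at 11.3 FPKM and 1.23 FPKM (-2.46). Genes that respond to this signal were lower beside the receptor: Dusp6, a phosphatase that limits ERK, stood at 26.5 and 3.84 FPKM, and Spry4, another brake on the pathway, at 5.50 and 0.765 FPKM. The transcription factor genes Egr2 (-1.93), Bcl6b (-1.55), Egr4 (-1.39) and Id4 (-1.16) completed the 8. Etv5 (6.81 and 3.10 FPKM) and Pou3f1 (7.02 and 5.52 FPKM), both also induced by GDNF, differed by -0.93 and -0.30 on the log2(FPKM + 1) scale and were not called. The other 10 members, among them Nanos2, Pax7 and Eomes, stayed under 5 FPKM in both columns. Sertoli markers were lower between the same libraries, with sums of 1462 and 235 FPKM, and their part in this list was not tested.

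In THY1 cells of the same ages the receptor genes stood higher, and both were within 2-fold between P12 and P14. Gfra1 stood at 23.2 FPKM in P12 THY1 and 16.6 FPKM in P14 THY1, Ret at 24.2 and 21.3 FPKM, and Id4 at 12.6 and 49.1 FPKM. Dusp6 (60.6 and 19.9 FPKM) and Spry4 (9.81 and 3.38 FPKM), in contrast to the receptor genes, were lower at P14 in THY1 cells as well. In all, 3 list members were lower in THY1 cells and 1 was higher. The list's median difference was -0.64 there, against -1.56 in KIT cells; with 1 value per group the contrast was not tested. At P7 the KIT column held 8.49 FPKM of Gfra1 and 10.8 FPKM of Ret, close to its P12 levels, so the low P14 values stand apart from both earlier ages.

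Genes of undifferentiated progenitors followed in the same direction. Of 13 members with FPKM of 5 or more, 6 were lower and 1 was higher (median -0.89), beside 11.2% and 5.52% of all tested genes. Zbtb16, which encodes the stem cell factor PLZF, stood at 41.6 FPKM at P12 and 15.8 FPKM at P14. The translational repressor gene Nanos3 stood at 10.6 and 2.46 FPKM, and Pou5f1, the gene of OCT4, at 7.24 and 2.62 FPKM. Glis3, a zinc finger gene active in progenitors, stood at 24.1 and 3.95 FPKM, and Upp1 and Sall1 were the other lower members. The member that was higher was Magea4, an X-linked germ cell gene, at 5.36 and 13.4 FPKM.

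Genes of differentiating spermatogonia had a median near zero with a few large exceptions. All 16 members reached FPKM of 5, and 3 were higher, 1 was lower and 12 did not reach 2-fold (median 0.25). Dmrtb1, which encodes DMRT6, a regulator of the step from mitosis to meiosis, stood at 42.7 FPKM in P7 KIT, 5.84 FPKM in P12 KIT and 62.6 FPKM in P14 KIT. The P12 value was thus the one that stood apart. In THY1 cells Dmrtb1 stood at 5.49, 1.89 and 53.4 FPKM at the same 3 ages. The homeobox genes Rhox13 (37.5 and 99.01 FPKM at P12 and P14) and Esx1 (20.5 and 52.3 FPKM), both X-linked, were the other higher members. Ccnd2, the cyclin D2 gene of early spermatogonial divisions, was lower, at 30.7 and 9.68 FPKM, whereas Ccnd1 was higher, at 16.2 and 51.8 FPKM.

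Few retinoic acid genes differed by 2-fold. Stra8, the retinoic acid target needed for meiotic entry, stood at 106, 192 and 250.7 FPKM in KIT cells at P7, P12 and P14, a P12 to P14 difference of 0.39. Aldh1a1, which encodes an enzyme that makes retinoic acid, was higher at P14, at 190 and 479 FPKM, while in THY1 cells it stood at 229 and 139 FPKM. Rbp4, the gene of the retinol carrier, was also higher, at 18.4 and 47.6 FPKM. Cyp26a1, whose enzyme degrades retinoic acid, was lower, at 8.64 and 2.75 FPKM. The other 15 of the 18 pathway members with FPKM of 5 or more did not reach 2-fold (median 0.14), so the share called was the 16.7% of all tested genes. Among these 15, Rdh10 and Aldh1a2, of synthesis, stood at 24.8 and 12.3 FPKM and at 46.1 and 34.8 FPKM, and Cyp26b1, of degradation, at 13.3 and 16.3 FPKM.

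The genes of early meiotic prophase stood at nearly the same level at P12 and P14. Of 13 break formation genes 1 was higher and none was lower. Of 14 synaptonemal complex and axis genes none was higher and 1 was lower. Of 18 recombinase and crossover genes with FPKM of 5 or more none passed the size rule in either direction. Among all tested genes 16.7% passed it. The medians of the 3 lists were 0.17, 0.28 and -0.08. Prdm9, which sets the sites of meiotic breaks, stood at 31.5 FPKM at P12 and 32.3 FPKM at P14. Dmc1, the meiotic recombinase gene, stood at 85.1 and 84.4 FPKM, and Sycp3, of the chromosome axis, at 523 and 540 FPKM.

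Those levels had been reached after P7, when KIT cells held 3.11 FPKM of Prdm9, 13.1 FPKM of Dmc1 and 126 FPKM of Sycp3. From P7 through P12 to P14 the synaptonemal complex list had median levels of 46.7, 132 and 150 FPKM, and the recombinase and crossover list of 6.10, 21.95 and 24.6 FPKM. Spo11, the gene of the enzyme that cuts DNA for recombination, stood at 10.9 and 6.75 FPKM at P12 and P14, a difference of -0.62. The member of these lists that was lower was Sycp2, an axis gene, at 224 and 89.2 FPKM, and the member that was higher was Rec114, a break factor listed as 2410076I21Rik, at 26.1 and 58.8 FPKM. Of 16 genes of the sex body and its checkpoint H2afx was higher, none was lower, and the median was -0.28. Among the 12 genes of meiotic initiation Mga alone passed the rule; it encodes a repressor of meiotic genes and stood at 104 and 43.7 FPKM.

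**Figure D2:**
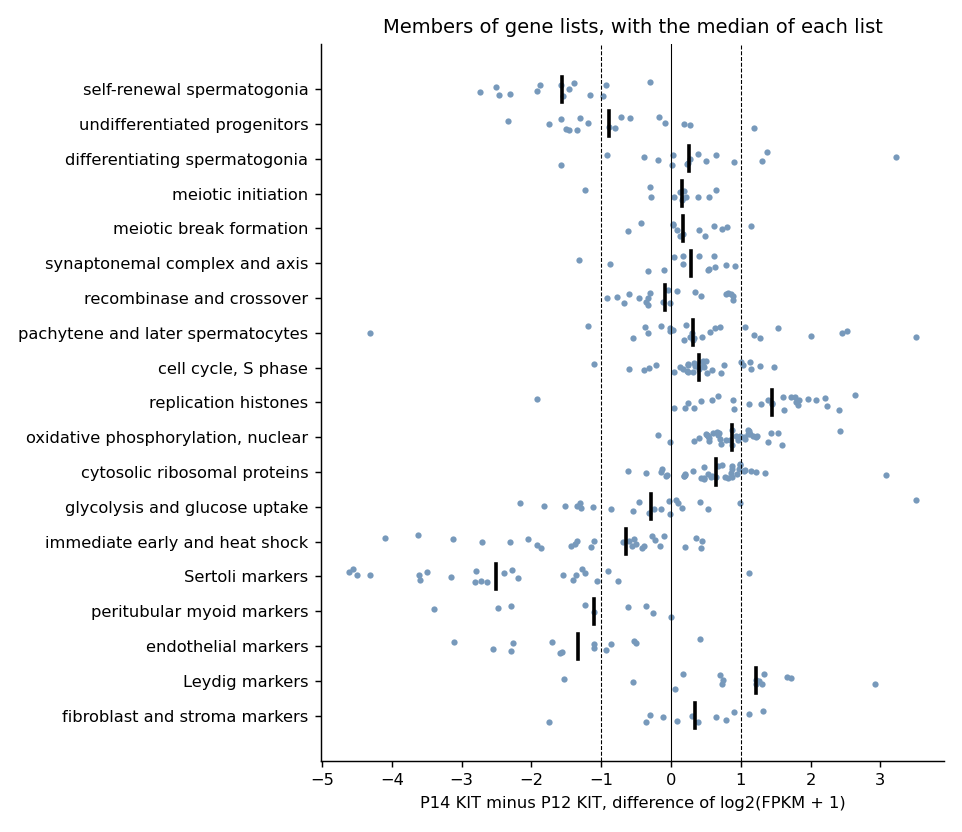
P14 minus P12 difference of log2(FPKM + 1) in KIT cells for each member with FPKM of 1 or more in either column, by gene list; the black bar is the median of the list and the dashed lines mark 2-fold. The meiotic lists drawn have medians from -0.08 (recombinase and crossover) to 0.28 (synaptonemal complex and axis), between the low Sertoli list (-2.51) and the high histone list (1.45).

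A minority of the genes of pachytene spermatocytes and later stages were higher at P14. Ldhc, a lactate dehydrogenase gene of germ cells, was at 0.805, 1.88 and 31.9 FPKM in KIT cells at P7, P12 and P14, a P12 to P14 difference of 3.51. Fabp9, a fatty acid binding protein gene of spermatocytes and sperm, stood at 6.87 and 49.1 FPKM at P12 and P14. Meig1, needed for the sperm tail, stood at 5.62 and 36.9 FPKM, Crisp2 at 0.580 and 7.58 FPKM, and Spata4 at 0.637 and 8.96 FPKM. The testis-specific respiratory subunit gene Cox8c stood at 2.88 and 19.8 FPKM, and Hist1h1t, the linker histone gene of spermatocytes, at 72.03 and 210 FPKM. Hspa2, a chaperone gene of meiosis, stood at 28.6 and 61.0 FPKM. Of the 22 listed pachytene genes with FPKM of 5 or more, 5 were higher, 2 were lower and 15 did not reach 2-fold, and the median of the list was 0.32. The lower ones were Ccnb3, a cyclin gene of early prophase (47.1 and 20.1 FPKM), and Cldn11, which is a Sertoli cell gene as well. Over all tested genes 5.52% were higher and 11.2% were lower.

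Most of the late programme was not high in P14 KIT. Piwil1, the pachytene piRNA gene MIWI, stood at 5.85 and 8.32 FPKM, Ccna1, the meiotic cyclin A1 gene, at 0.786 and 0.929 FPKM, and Mybl1, the activator of pachytene genes, at 34.7 and 23.4 FPKM. Of 24 piRNA genes 23 reached FPKM of 5; 1 was lower (Piwil4, 7.38 and 3.16 FPKM) and none was higher. Of 32 spermatid genes 3 reached FPKM of 5 and none passed the rule; Prm1 was listed at 0 at P12 and stood at 1.402 FPKM at P14, and Tnp1 stood at 2.88 and 3.84 FPKM. Among 9 flagellum genes with FPKM of 5 or more, of 30 in the list, Rsph1, of the radial spoke, was higher (5.78 and 17.6 FPKM) and Dnahc2, an axonemal dynein gene, was lower (6.10 and 2.35 FPKM). For comparison, 5.52% of all tested genes were higher and 11.2% were lower.

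Most of the late genes that were higher in P14 KIT were far higher in P14 THY1. Ldhc in P14 KIT was 2.26% of its 1409 FPKM in P14 THY1, Crisp2 was 2.27% of 334 FPKM, Spata4 2.14% of 419 FPKM, Meig1 3.77% of 978 FPKM, Fabp9 4.02% of 1219 FPKM and Cox8c 4.85% of 409 FPKM. The shares of Hspa2 (8.64% of 706 FPKM), Hist1h1t (17.0% of 1234 FPKM) and Rbmxl2 (46.2% of 92.8 FPKM) were larger. Rbmxl2 had stood at 32.5 FPKM in P7 KIT. Over the 42 genes with at least 32-fold higher level in P14 than in P12 THY1 and FPKM of 100 or more there, the P14 KIT level was a median 3.29% of the P14 THY1 level, with quartiles at 2.25% and 4.77% and extremes at 1.34% and 17.0%. These 42 were picked for their THY1 values, so their share is a description. Their median level in KIT cells was 1.56 FPKM at P12 and 7.60 FPKM at P14, and at P12 the median over genes of the KIT level as a share of the THY1 level was 84.2%. Over the 28 listed pachytene, spermatid, flagellum and retrogene members with 100 FPKM or more in P14 THY1, the share was wider, with a median of 9.50%, quartiles at 3.69% and 29.9% and extremes at 1.98% and 97.0%, and 14 of the 28 were under 10%. Whether the P14 values come from KIT-positive spermatocytes or from cells of the THY1 kind in the KIT library was not tested.

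**Figure D3:**
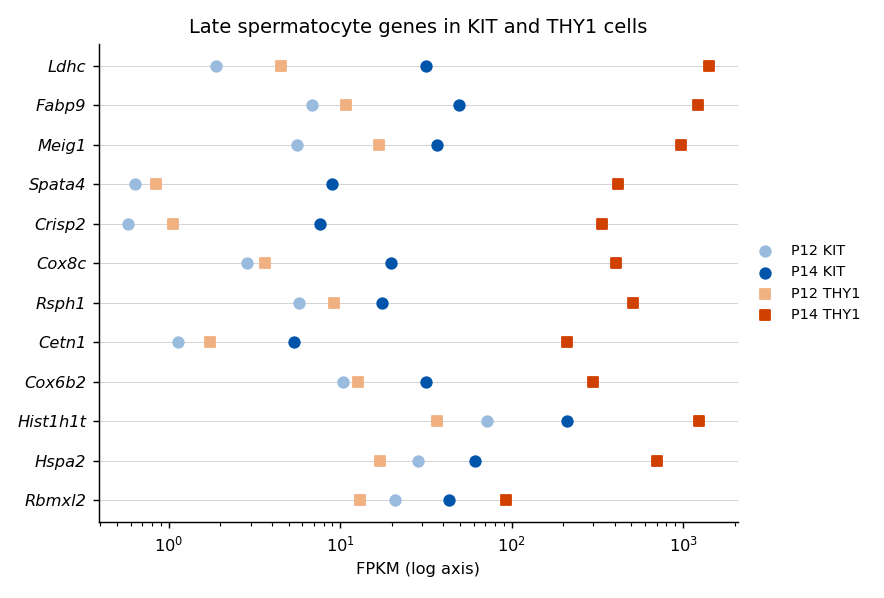
FPKM of 12 genes of later spermatocytes that were higher at P14 in KIT cells, on a log axis, in KIT (circles) and THY1 cells (squares) at P12 (pale) and P14 (dark). In each gene P14 KIT lies above P12 KIT and below P14 THY1, with Ldhc at 31.9 FPKM in P14 KIT against 1409 FPKM in P14 THY1. Rbmxl2 has a smaller gap, at 42.9 FPKM in P14 KIT against 92.8 FPKM in P14 THY1.

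The P12 to P14 difference followed the genomic span of genes, and the gene lists differ in span. Genes under 2 kb had a median difference of 0.73, and 34% of the 300 were higher. Genes over 128 kb had a median of -0.56, and 28.8% of the 833 were lower while 0.60% were higher. The median span was 6.52 kb for higher genes and 52.3 kb for lower genes, against 24.4 kb for all tested genes, with a span (RefSeq, GRCm38.p6) for 99.3% of them. P12 stood apart from both neighbours in this. From P7 to P12, where 581 genes were higher (5.83%) and 405 lower (4.07%), 986 in all (9.9%), the medians ran from -0.61 under 2 kb to 0.40 over 128 kb, whereas from P7 to P14 they ran from 0.13 to -0.12. THY1 cells showed the P12 to P14 trend too, from 0.53 to -0.54. The cause of the trend was not tested.

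**Figure D4:**
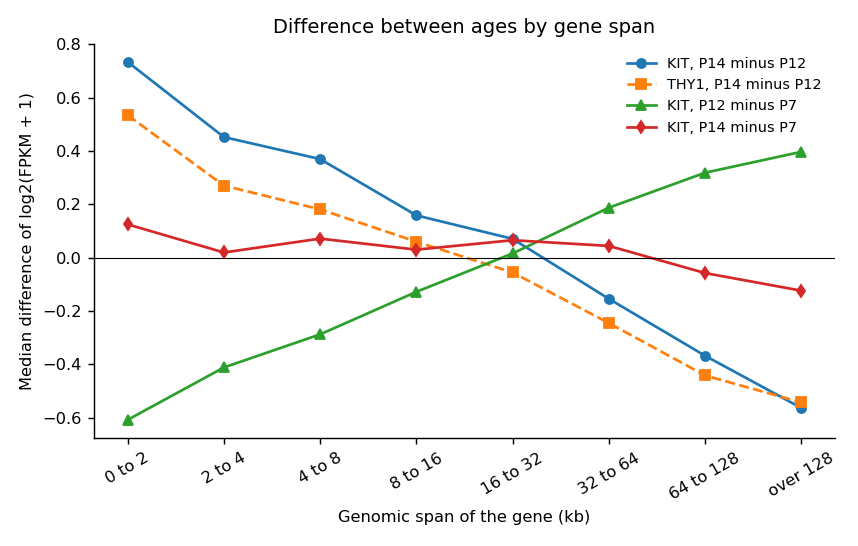
Median difference of log2(FPKM + 1) by genomic span of the gene in kb, for genes with FPKM of 5 or more in either of the P12 and P14 KIT columns. The P14 minus P12 lines of KIT and THY1 cells fall from left to right, the P12 minus P7 line of KIT cells runs the opposite way, and P14 minus P7 stays between -0.12 and 0.13.

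Each result was also read, by a choice made after seeing the data, after subtracting the median of the gene's span class, of which there were 8. The number of higher genes became 365 of 9773 (3.73%) and that of lower genes 932 (9.54%); 232 of the former and 803 of the latter were among the 543 and 1098. The median of the replication histone list was 0.79 in place of 1.45, that of respiratory genes 0.59 in place of 0.87 and that of ribosomal protein genes 0.19 in place of 0.64. Histone genes made up 51 of the 300 genes under 2 kb; the other 249 had a median of 0.62, and 26.1% of them were higher. The Sertoli (-2.68), Leydig (1.10) and self-renewal medians (-1.88) differed from their uncorrected values by less than 0.5. Sycp2 stayed lower at -1.16 and Dmrtb1 higher at 3.15, while Mga (-0.87), Pola1 (-0.54), Tk1 (0.99), Gins2 (0.76) and Rfc4 (0.87) no longer reached 2-fold. The same held for Zbtb16 (-0.78), Magea4 (0.45), Esx1 (0.94), Piwil4 (-0.85), Tet3 (-0.85) and Rbmxl2 (0.27). Of the higher pachytene genes, Hspa2 (0.61) and Hist1h1t (0.80) lost the call, and Ldhc (3.44), Meig1 (2.36) and Crisp2 (2.37) kept it. In all, 50 named genes lost the call.

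Among the higher genes named here, histone genes had the highest P14 levels. Most histone genes are expressed with DNA replication, and their messages end in a stem loop and carry no poly(A) tail; libraries of total RNA without ribosomal RNA, as here, keep them. Of 59 clustered histone symbols 54 reached FPKM of 5, and 37 were higher, 1 was lower and 16 did not reach 2-fold (median 1.49, range -1.92 to 2.64). All 5 histone types took part, with 5 of 6 H1 genes, 9 of 12 H2A genes, 10 of 16 H2B genes, 5 of 9 H3 genes and 8 of 11 H4 genes higher. In KIT cells they summed to 16476 FPKM at P7, 14805 FPKM at P12 and 48482 FPKM at P14. The THY1 sums were 9674, 6213 and 24413 FPKM. Near-identical copies can share fragments, so single histone values are uncertain.

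The linker histone gene Hist1h1a stood at 3480 FPKM at P12 and 12401 FPKM at P14. Hist1h2aa and Hist1h2ba, which encode the germ cell variants TH2A and TH2B, stood at 2057 and 7092 FPKM and at 3604 and 8841 FPKM. Both variants are members of the replication histone list and enter its counts, median and sum. Hist1h3c stood at 21.9 and 142 FPKM, with 129 FPKM at P7, and Hist1h4c at 590 and 2769 FPKM. Hist3h2ba stood at 186 and 1077 FPKM, Hist4h4 at 245 and 1299 FPKM and Hist1h3h at 25.6 and 146 FPKM. H2afx, the gene of the variant H2AX that marks DNA breaks and the sex body, stood at 294 and 1877 FPKM, a difference of 2.67. The lower histone gene was Hist1h2bc, at 43.4 and 10.8 FPKM.

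Promoter windows of 4 of these histone genes, from 250 bases before to 50 after the start site, are given because they share a CCAAT box, searched as CCAATNA on both strands and shown in capitals (RefSeq, GRCm38.p6).
Hist1h2aa (H2ac1), chr13:23934187-23934486, strand plus: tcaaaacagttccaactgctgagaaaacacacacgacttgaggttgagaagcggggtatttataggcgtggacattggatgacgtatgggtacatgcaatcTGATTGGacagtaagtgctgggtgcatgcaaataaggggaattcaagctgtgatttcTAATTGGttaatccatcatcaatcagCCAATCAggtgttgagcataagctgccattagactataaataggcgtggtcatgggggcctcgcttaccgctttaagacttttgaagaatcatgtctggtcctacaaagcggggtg
Hist1h1a (H1f1), chr13:23763418-23763717, strand plus: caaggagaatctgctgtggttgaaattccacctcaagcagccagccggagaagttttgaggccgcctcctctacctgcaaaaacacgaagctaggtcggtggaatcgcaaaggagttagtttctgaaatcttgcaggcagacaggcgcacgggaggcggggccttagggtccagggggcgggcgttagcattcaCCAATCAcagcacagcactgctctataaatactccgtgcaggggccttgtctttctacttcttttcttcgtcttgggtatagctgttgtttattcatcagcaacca
Hist1h3c (H3c3), chr13:23745472-23745771, strand minus: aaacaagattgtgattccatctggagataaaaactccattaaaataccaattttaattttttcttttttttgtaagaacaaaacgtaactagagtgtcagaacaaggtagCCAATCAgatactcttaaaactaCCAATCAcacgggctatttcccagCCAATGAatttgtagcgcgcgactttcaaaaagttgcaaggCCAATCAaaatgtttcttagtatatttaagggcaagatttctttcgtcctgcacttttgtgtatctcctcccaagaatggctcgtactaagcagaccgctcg
Hist1h4c (H4c3), chr13:23698409-23698708, strand minus: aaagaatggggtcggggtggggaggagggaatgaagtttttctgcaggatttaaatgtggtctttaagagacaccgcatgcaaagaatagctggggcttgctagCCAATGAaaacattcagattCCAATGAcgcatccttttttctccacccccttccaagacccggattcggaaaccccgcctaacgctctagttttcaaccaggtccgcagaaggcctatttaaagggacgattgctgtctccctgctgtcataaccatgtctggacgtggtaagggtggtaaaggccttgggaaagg

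Hist1h2aa and Hist1h2ba are read in opposite directions from one stretch of DNA, and their windows overlap by 220 of 300 bases. All 3 matches in the Hist1h2aa window lie in the shared part. Of 35 higher histone genes with a window 74.3% held CCAATNA, against 77.6% of the 49 with FPKM of 5 or more, 22.8% of the 447 higher genes of any kind, 13.1% of the 841 lower genes and 16.1% of all 27025 windows. Without histone genes the share among higher genes was 18.4% of 412, beside 18.8% of the 7963 genes with FPKM of 5 or more. The motifs CNCCTCAG (bound by STRA8), AACNGNC (MYB), GTTGCCA (RFX), CACGTG (E-box), TGACGTCA (CRE) and TTTCCCGC or TTTGGCGC (E2F) were held by 8.28%, 34.7%, 2.46%, 8.28%, 2.91% and 3.13% of higher genes, and by 8.32%, 30.4%, 2.50%, 9.04%, 2.85% and 2.50% of lower genes. Among genes with FPKM of 5 or more the shares were 9.57%, 33.6%, 3.69%, 11.4%, 3.69% and 3.59%. A stricter MYB form, AACCGTTA, was in 0 windows of higher genes and 1 window of lower genes. A match is a run of letters and not a bound site.

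Genes of the cell cycle were less affected than histone genes. Of 31 S phase genes 5 were higher and 1 was lower (median 0.40): Ccne2, the cyclin E2 gene that starts DNA synthesis, stood at 77.1 and 188 FPKM, E2f2 at 2.13 and 7.73 FPKM, Gins2, of the replication helicase, at 24.2 and 54.2 FPKM, Tk1 at 4.91 and 12.1 FPKM and Rfc4 at 55.5 and 114 FPKM. Pola1, the DNA polymerase alpha gene, was lower, at 28.2 and 12.6 FPKM. Of 31 genes of G2 and M phase, Cenpa, the centromeric histone gene, was higher (28.6 and 73.1 FPKM) and none was lower (median 0.27). Both lists stand beside 5.52% higher and 11.2% lower among all tested genes. Mki67 stood at 151 and 82.5 FPKM. Among cell cycle inhibitors Cdkn2a (20.8 and 46.3 FPKM) and Cdkn2c (14.4 and 30.8 FPKM) were higher, and Cdkn1a (7.52 and 1.84 FPKM) and the imprinted Cdkn1c (14.6 and 5.90 FPKM) were lower.

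A part of the respiratory chain genes was higher and several genes of glucose use were lower. Of 36 nuclear genes of oxidative phosphorylation with FPKM of 5 or more, 15 were higher, none was lower and 21 did not reach 2-fold (median 0.87). The shares over all tested genes were 5.52% higher and 11.2% lower. Against P7 KIT 3 were higher and 1 was lower (median 0.33). Ndufb8, of complex I, stood at 137 and 414 FPKM, Sdhb, of complex II, at 79.2 and 174 FPKM, Uqcrc2, of complex III, at 85.7 and 178 FPKM, and Cox4i1, of complex IV, at 442 and 957 FPKM. The testis form Cox6b2 stood at 10.3 and 31.8 FPKM. After centring by span Uqcrc2 (0.98), Cox4i1 (0.74) and Cox6b2 (0.80) no longer reached 2-fold, while Ndufb8 (1.22) and Sdhb (1.06) still did. Of 31 ribosomal protein genes 6 were higher and none was lower (median 0.64), with Rps14 at 235 and 601 FPKM and Rpl32 at 322 and 752 FPKM. Centred in the same way, Rps14 (0.90), Rpl32 (0.77), Rpl13 (0.70), Rpl11 (0.69) and Rps27 (0.30) lost the call, and Rpl38 (2.71) kept it. Both sums had been higher at P7: respiratory genes summed to 6561, 4175 and 7884 FPKM at P7, P12 and P14, and ribosomal protein genes to 10847, 5928 and 9739 FPKM. Ribosomal protein genes have many pseudogene copies, so single values such as Rpl38, at 7.32 and 69.1 FPKM, are uncertain.

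Of 18 genes of glycolysis and glucose uptake 6 were lower and 1, Ldhc, was higher (median -0.29). Among all tested genes 11.2% were lower and 5.52% were higher. In THY1 cells 7 list members were lower and 4 were higher between P12 and P14 (median -0.48). Sertoli markers were lower in both selections, and their part in this list was not tested. The glucose transporter gene Slc2a1 stood at 20.9 and 6.68 FPKM, hexokinase 2 (Hk2) at 20.3 and 7.72 FPKM, pyruvate kinase (Pkm2) at 102 and 46.8 FPKM and Ldhb at 39.5 and 10.5 FPKM. Pdk1, whose kinase keeps pyruvate out of mitochondria, stood at 16.9 and 2.98 FPKM. Pfkl was the sixth lower member.

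Sertoli cell transcripts had the lowest median of the 40 lists. Of 24 markers 21 reached FPKM of 5, and 19 were lower, 15 of them by 4-fold or more; 1 was higher (median -2.51). Shbg, the androgen-binding protein gene, stood at 45.2 FPKM at P12 and 0.891 FPKM at P14. The cystatin genes Cst12 and Cst9 stood at 202 and 7.64 FPKM and at 162 and 6.22 FPKM. Cldn11, of the blood-testis barrier, stood at 51.3 and 1.63 FPKM, the transcription factor gene Wt1 at 36.4 and 2.08 FPKM and Sox9 at 9.41 and 0.174 FPKM. Kitl, which encodes the ligand of KIT and is made by Sertoli cells, stood at 30.4 and 5.50 FPKM. The higher member was Trf, the transferrin gene, at 6.53 and 15.3 FPKM. Gata4, at 13.3 and 6.64 FPKM, did not reach 2-fold. No marker was at 0 in either column.

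The 24 Sertoli markers together held 983, 1462 and 235 FPKM in KIT cells at P7, P12 and P14. In THY1 cells they held 1640, 3958 and 205 FPKM, so the P12 libraries of both markers held the most and the P14 libraries the least. In bulk samples fewer cells of a type and less RNA per cell cannot be told apart. Of the 15 named genes with the largest lower differences, Shbg, Cst12, Cst9 and Cldn11 are on the Sertoli list. The others were Neat1 (95.2 and 2.07 FPKM), a long noncoding RNA of nuclear paraspeckles, Thbs1 (38.2 and 0.359 FPKM), an extracellular matrix gene, Syne2 (94.6 and 4.53 FPKM), which ties the nucleus to the cytoskeleton, Gatm (104 and 5.40 FPKM), a creatine synthesis gene, Atf3, Daam2, Cdh23, Ctnnal1, Mro, Tmem184a and Celf2. In THY1 cells 14 of these 15 were at lower level at P14 than at P12 as well; Celf2 was listed at 0 there at both ages and stood at 0, 18.1 and 0 FPKM in KIT cells at P7, P12 and P14.

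Other somatic transcripts differed by cell type. Of 7 endothelial markers with FPKM of 5 or more 6 were lower, with Pecam1 at 12.6 and 0.578 FPKM, and their sum ran 281, 83.2 and 33.8 FPKM from P7 to P14. Of 6 peritubular myoid markers 4 were lower, with Acta2 at 27.2 and 1.69 FPKM. Macrophage markers summed to 42.2 and 22.04 FPKM, and of the 2 that reached FPKM of 5 Cd74 was lower, at 6.72 and 0.540 FPKM, while H2-Ab1 stood at 7.32 and 14.7 FPKM. Of 8 fibroblast markers 2 were higher, Col3a1 (57.7 and 145 FPKM) and Dcn (43.0 and 94.3 FPKM). Red blood cell markers summed to 9.36 and 5.13 FPKM and mast cell and lymphocyte markers to 11.3 and 15.3 FPKM, with 7 of these 16 at 0 in P14 KIT.

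Leydig cell genes went the opposite way. Of 13 with FPKM of 5 or more, 8 were higher at P14 and none was lower (median 1.21). Insl3, a Leydig hormone gene, stood at 258, 77.1 and 256 FPKM in KIT cells at P7, P12 and P14. Cyp17a1, of androgen synthesis, stood at 245, 38.7 and 124 FPKM, and Hsd3b1 at 324, 38.8 and 98.9 FPKM. Hsd3b6, the form of adult Leydig cells, stood at 0.367, 9.26 and 76.9 FPKM, so it was higher at each age, while Hsd3b1 was highest at P7; close copies in this family can share fragments. The Leydig markers summed to 1394, 319 and 791 FPKM in KIT cells and to 236, 172 and 276 FPKM in THY1 cells, lowest at P12 in both, with Cyp11b1 at 0 in P14 KIT. Aldh1a1 and Hsd3b6 were both higher at P14 than at P12 in KIT cells, but they went opposite ways in other comparisons. In THY1 cells at P12 and P14 Aldh1a1 stood at 229 and 139 FPKM and Hsd3b6 at 2.59 and 27.9 FPKM. In KIT cells at P7 and P12 Aldh1a1 stood at 270 and 190 FPKM and Hsd3b6 at 0.367 and 9.26 FPKM. Whether Leydig cells carry the difference of Aldh1a1 was not tested.

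**Figure D5:**
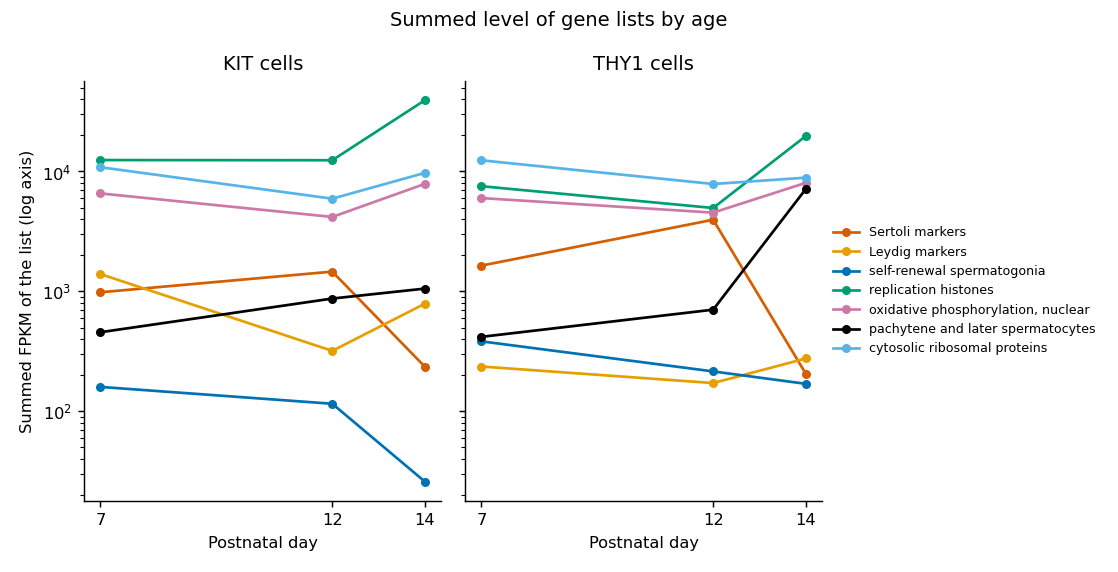
Summed FPKM of 7 gene lists at P7, P12 and P14 in KIT (left) and THY1 cells (right), on a log axis with 1 value per group. In KIT cells the Sertoli sum drops from 1462 to 235 FPKM between P12 and P14, and the Leydig, respiratory and ribosomal sums are lowest at P12. The sum of the replication histone list, which includes the variant genes Hist1h2aa and Hist1h2ba, climbs from 12403 to 39337 FPKM between P12 and P14 in KIT cells.

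Several stress and signalling genes were lower at P14. Of 26 immediate early and heat shock genes with FPKM of 5 or more 12 were lower and none was higher (median -0.64). Atf3 stood at 27.4 and 0.652 FPKM, Klf6 at 60.1 and 6.02 FPKM, Ier3 at 51.4 and 3.26 FPKM, Jun at 52.4 and 18.8 FPKM and Hspb1 at 10.2 and 0.708 FPKM. The list had a median of -0.93 in THY1 cells, where Sertoli markers were lower too; among all tested genes in KIT cells 11.2% were lower. Of 18 p53 and apoptosis genes 5 were lower, 2 were higher and 11 did not reach 2-fold. The death receptor gene Fas stood at 16.6 and 0.471 FPKM and Casp8 at 8.50 and 1.57 FPKM. Cdkn1a, Bcl2l2 and Pmaip1 were the other lower members. The higher members were Phlda3 (6.56 and 17.8 FPKM) and Ccng1 (26.7 and 56.9 FPKM). After centring by span Phlda3 (0.86) and Ccng1 (0.69) no longer reached 2-fold, while the 5 lower members still did. Of 24 genes of the KIT, mTOR and PI3K pathway 4 were lower, Kitl, Pik3ca, Sos1 and Cblb, none was higher and 20 did not reach 2-fold. Centred by span, the median of this list was -0.26 in place of -0.58. Pik3ca (-0.70) and Cblb (-0.53) then no longer reached 2-fold, while Kitl (-1.90) and Sos1 (-1.13) did. Of 19 BMP, activin and WNT genes 14 did not reach 2-fold and 5 were lower, among them Smad3 (15.7 and 4.03 FPKM), Fst (7.78 and 1.12 FPKM) and Inhbb (6.91 and 0.726 FPKM). The median of that list was -0.31 centred by span, in place of -0.62.

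Few genes of DNA methylation and germ line chromatin differed by 2-fold, while more imprinted genes were lower than higher. Among all tested genes 5.52% were higher and 11.2% were lower. Of 18 DNA methylation genes Ctcfl, the germ cell relative of CTCF, was higher (10.1 and 22.4 FPKM) and Tet3, a demethylation enzyme gene, was lower (24.7 and 10.04 FPKM). Dot1l, a histone methyltransferase gene, was lower (52.2 and 17.2 FPKM). Of 18 paternally expressed imprinted genes 7 were lower and none was higher (median -0.42), with Peg10 at 17.6 and 2.27 FPKM, Zdbf2 at 22.8 and 6.90 FPKM and the noncoding RNAs Airn (7.13 and 0.923 FPKM) and Kcnq1ot1 (12.5 and 2.33 FPKM). Of 13 maternally expressed ones 3 were lower, Ppp1r9a (22.2 and 2.63 FPKM), Cdkn1c and Meg3 (5.94 and 1.53 FPKM), and Dcn was higher. Of 17 RHOX and X-linked germ cell genes Rhox13, Esx1 and Magea4 were higher and Nxf3, an RNA export gene, was lower, at 2.54, 58.2 and 7.61 FPKM from P7 to P14. Of 11 autosomal retrogenes of X-linked genes Cetn1, a centrin gene (1.13 and 5.36 FPKM), and Rbmxl2 (20.9 and 42.9 FPKM) were higher, and of 6 Y-linked genes none passed the rule (median -0.50).

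KIT and THY1 cells shared more of the lower than of the higher genes. Of the 1098 genes lower at P14 in KIT cells 800 were lower in THY1 cells too, which is 72.9% of the KIT and 45.5% of the 1760 THY1 genes (16.6% of those tested). Of the 543 higher genes 245 were higher in both, 45.1% of the KIT and 14.5% of the 1684 THY1 genes (15.9% of those tested). The comparisons share no library, but each has both ages, so anything common to the P12 or to the P14 libraries enters both. Among genes higher in KIT cells but not in THY1 cells were Ndufa4, of the respiratory chain, at 156 and 423 FPKM against 177 and 150 FPKM, and Aldh1a1.

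With P7 KIT as the earlier age, 556 genes were higher at P14 (5.65%) and 974 were lower (9.89%), of which 160 and 578 were among those that differed from P12. Both comparisons share the P14 column. Against P7 the median difference was -1.97 for self-renewal genes and -2.23 for Sertoli markers, so these were low against both ages. It was 0.28 for replication histones, -0.06 for ribosomal protein genes and -0.97 for Leydig markers, in place of 1.45, 0.64 and 1.21 against P12. For the synaptonemal complex list it was 1.93 against P7 and 0.28 against P12. From P7 through P12 to P14 the 543 higher genes had median levels of 21.96, 15.3 and 37.2 FPKM, and the 1098 lower genes of 12.0, 15.4 and 3.89 FPKM.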

How the data were processed

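RNA sequencing of KIT-selected testis cells at P12 (2 libraries) and P14 (1 library) was used, with P7 KIT and the THY1 groups of P7, P12 and P14 for context. The authors deposited FPKM in 1 table with 1 value per group; how the P12 libraries were combined is not stated. Per the labels' protocols, ribosomal RNA was depleted from total RNA and libraries were directional. The submitters' processing notes name CASAVA, TopHat2 2.0.9, Cufflinks 2.1.1 and build mm9, in no order; the annotation is not given in the sources used here.

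Differences of log2(FPKM + 1) were computed with Python 3.11.15, numpy 2.4.6 and pandas 2.3.3 and plotted with matplotlib 3.10.9, and the calculation was checked on simulated data. Genes were called at 2-fold where the higher value was at least 5 FPKM; the 40 gene lists (834 distinct members found, 29 symbols through a RefSeq synonym, 27 not found) were described by counts and by the median over members with FPKM of 1 or more. Named genes were the sort markers, stage markers, the 15 largest differences in each direction without small RNA and unnamed gene models (62 of the higher and 58 of the lower genes), up to 4 members of each list and called members; Rec114, Ndufa4, Etv5, Pou3f1, Gata4, Aldh1a2, Cyp26b1 and the genes in opposite directions were named after their values were seen. Members, lists and rules were chosen with earlier results of these data known. Spans and promoter windows are RefSeq's (GRCm38.p6, first window per gene); 20681 of the 20889 symbols matched. Read depth is not in the FPKM values. A limma test, planned only for values per library, was not run. Alternatives were other pseudocounts, FPKM minimums, folds and scalings, and, chosen after seeing the data, scaling without Rmrp, centring by span and P7 KIT as the earlier age. The bisulfite and chromatin immunoprecipitation samples were not analysed here.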

Additional observations from a re-analysis of the deposited data

Results flagged for a closer look

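Of the genes called in both cell selections, 245 were higher in both and 800 were lower in both. Another 8 were called in opposite directions between P12 and P14. With 1 value per group the difference between the selections was not tested. Lower in KIT and higher in THY1 cells were 7 genes. Id4, an inhibitor of transcription factors in stem cells, differed by -1.16 in KIT cells (7.62 and 2.85 FPKM) and by 1.88 in THY1 cells (12.6 and 49.1 FPKM). Eid3 differed by -1.20 in KIT (8.79 and 3.27 FPKM) and by 2.98 in THY1 cells (13.5 and 113 FPKM). Dnahc2, of the axoneme, differed by -1.09 and 1.49, Enkur, a sperm tail gene, by -1.13 and 1.42, Grk4, a receptor kinase gene, by -1.07 and 1.32, Pxt1 by -1.07 and 1.13, and 4930534B04Rik by -1.03 and 2.44. Mt3, a metallothionein gene, was the reverse, at 1.23 in KIT (3.79 and 10.2 FPKM) and -1.31 in THY1 cells (9.50 and 3.23 FPKM). The KIT differences all lay near the 2-fold limit. Centred by span, those of Dnahc2 (-0.52), 4930534B04Rik (-0.47), Grk4 (-0.70) and Mt3 (0.49) no longer reached it. Those of Id4 (-1.53), Eid3 (-1.93), Enkur (-1.20) and Pxt1 (-1.23) still did.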

How the results depend on the processing

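No paired analysis was possible because the table holds 1 value per group, and for the same reason no replicate could be left out. A pseudocount of 5 left 908 genes, 297 higher and 611 lower; a minimum of 20 FPKM left 799, 374 higher and 425 lower; 3-fold left 574 (79 and 495) and 4-fold 329 (27 and 302). Scaling to the same total FPKM gave 217 higher and 1705 lower, and without Rmrp, an alternative chosen after seeing the data, 274 and 1516. Quantile normalization (622 and 889) and scaling to the same median (720 and 954) moved each count by less than 1.5 times. The self-renewal median was -2.60 with a pseudocount of 0.1 and -0.79 with 5, and the Sertoli median -3.28 and -1.38. Centring by span, also added later, moved the histone median to 0.79. With P7 KIT as the earlier age, likewise added later and another comparison, the medians were 1.43 for pachytene genes, 0.28 for histones, and of the opposite sign for ribosomal protein genes (-0.062) and Leydig markers (-0.97); the cause was not tested. Of 248 named genes none changed sign as a call; 50 lost it on centring by span, 61 with a pseudocount of 5, 40 by quantile normalization and 34 on scaling to total FPKM. FPKM without counts sets no interval on any value.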
